A study of Mus musculus with 7 samples.

Results

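Tamoxifen was compared with estradiol in endometrial epithelial cells of mice without ovaries. The comparison sets 2 libraries labelled tamoxifen, mouse 1 and mouse 2, against 2 labelled E2, mouse 1 and mouse 2, which is 4 of the 7 libraries of the series; they were chosen by their column names in the deposited table of all genes. All mice were C57BL/6 females oophorectomized at 6 to 7 weeks of age. Of these, 18 were randomized to 3 arms of 6 that received vehicle (ED), tamoxifen at 0.5 mg per day in peanut oil under the skin, or the same tamoxifen with oral alpelisib at 30 mg/kg per day, for 28 days. The estradiol group comprised 2 further mice, outside that randomization, which carried a pellet of 0.01 mg of estradiol made for release over 60 days and were also treated for 28 days. Uterine horns were collected at the end, and total RNA was sequenced. Vehicle is represented by 1 library with no mouse number, so its values are given beside the others as a description, without a test. The compounds differ in dose, vehicle and route, so each result compares these 2 regimens. With 2 mice per group, p-values rest on the spread between so few animals. That spread is pooled over all groups with 2 libraries, which includes tamoxifen with alpelisib.

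The uterine epithelium answers to estradiol through the estrogen receptor, a nuclear receptor made from Esr1, both directly and through growth factors sent by the stroma beneath it. The response known from rodents includes entry of the epithelium into the cell cycle, secretion of lactoferrin, complement and mucins, and transport of fluid. Tamoxifen is a selective estrogen receptor modulator: its active metabolites block the receptor in breast, whereas in the uterus they act as a partial agonist. The title of the study asks about PI3K, the lipid kinase downstream of insulin and growth factor receptors, and its genes are described last.

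Levels are FPKM, that is, sequenced fragments scaled to transcript length and to the size of the library. Differences are log2 fold changes, tamoxifen minus estradiol, ± SE, on the log2(FPKM + 1) scale, from limma-trend fitted to all 7 libraries over the 12314 genes that reached 1 FPKM in any library. Genes are called at an adjusted p under 0.05. A called gene is named as higher or lower, and, unless another statement is made beside it, both of its libraries in one group lay above both in the other, and it was called in the same direction under each of 11 alternative analyses (other scalings, filters, a smaller pseudocount, fewer libraries). The sum of FPKM over genes ranged from 264322 to 403562 in the 7 libraries. The smallest values of genes with 1 transcript form steps, and if the first step is 1 fragment, 6 libraries hold 15.8 to 19.1 M fragments. In estradiol 2 that step held 15 genes, against 59 to 72 elsewhere, and its depth is unknown. Rn45s, the ribosomal RNA precursor, stood at 764 and 2276 FPKM with estradiol, 530.4 and 229.5 with tamoxifen and 189 to 240.3 in the remaining 3 libraries.

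The genes of highest relative level with tamoxifen were tissue kallikreins, serine proteases that lie in a cluster on chromosome 7. Their RefSeq promoters (build GRCm38.p6) are shown because these genes moved together by the largest amounts. The sequences also show how alike the copies are in that stretch. Each run is the 250 bases before the transcription start, with every single arm of the estrogen response element (GGTCA, or TGACC on the other strand) in capitals. Klk1 lies on the plus strand at chr7:44225110-44225359, Klk1b27 at chr7:44052040-44052289, Klk1b21 at chr7:44102042-44102291 and Klk1b24 at chr7:44187986-44188235, all on the plus strand. Ldhb, which had one of the lowest relative levels with tamoxifen, lies on the minus strand at chr6:142507958-142508207 and is shown for contrast.
Klk1: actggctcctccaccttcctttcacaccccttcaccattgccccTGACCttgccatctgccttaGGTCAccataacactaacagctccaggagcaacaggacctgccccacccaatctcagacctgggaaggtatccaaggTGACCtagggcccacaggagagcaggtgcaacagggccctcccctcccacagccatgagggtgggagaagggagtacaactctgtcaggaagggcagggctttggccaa
Klk1b27: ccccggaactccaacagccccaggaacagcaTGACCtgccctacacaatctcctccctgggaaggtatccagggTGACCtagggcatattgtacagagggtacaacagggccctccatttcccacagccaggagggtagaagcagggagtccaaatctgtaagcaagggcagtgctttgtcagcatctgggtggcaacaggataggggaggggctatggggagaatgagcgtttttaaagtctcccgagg
Klk1b21: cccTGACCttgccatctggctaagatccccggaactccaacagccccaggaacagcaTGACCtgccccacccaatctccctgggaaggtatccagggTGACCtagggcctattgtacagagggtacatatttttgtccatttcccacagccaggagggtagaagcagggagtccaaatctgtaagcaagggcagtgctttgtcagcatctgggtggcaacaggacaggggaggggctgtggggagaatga
Klk1b24: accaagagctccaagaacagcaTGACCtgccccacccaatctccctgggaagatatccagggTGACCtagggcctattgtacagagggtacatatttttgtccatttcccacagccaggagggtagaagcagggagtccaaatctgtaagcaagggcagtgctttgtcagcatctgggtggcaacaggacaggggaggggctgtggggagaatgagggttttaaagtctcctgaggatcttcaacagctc
Ldhb: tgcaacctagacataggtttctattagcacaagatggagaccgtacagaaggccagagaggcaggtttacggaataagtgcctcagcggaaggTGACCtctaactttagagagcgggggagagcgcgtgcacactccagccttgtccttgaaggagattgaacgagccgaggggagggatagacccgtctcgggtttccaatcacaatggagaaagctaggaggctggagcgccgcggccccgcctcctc
Single arms number 3 in the Klk1 window, 2 in Klk1b27, 3 in Klk1b21, 2 in Klk1b24 and 1 in Ldhb. The full palindromic element, GGTCA and TGACC with 3 bases between them, is in none of the 5 windows. A single arm is found in 35.2% of all 32851 windows of this length and the full element in 0.064%. Of the 12314 genes tested, 9412 matched a window by symbol, and 37.7% of these hold a single arm. The share was 40.5% among 588 matched genes that were higher in the fit and all alternatives, and 35.4% among 1618 that were lower. These shares are a description of letters near the start and say nothing about binding. Klk1b21 and Klk1b24 share an identical run of 162 bases in these windows, and Klk1b27 shares one of 89 bases with each of them, while Klk1 shares at most 20 bases with any of the 3. These windows lie before the transcription start, so their likeness does not bear on reads, and transcript sequences were not compared. No source used here tells how reads were divided among related genes, so the split of values among the Klk1b genes is uncertain.

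Klk1, tissue kallikrein, which releases kinins from kininogen, measured 0.736 and 0.235 FPKM with estradiol, 57 with vehicle and 9358 and 17316 with tamoxifen, a difference of 13.09 ± 0.35 (adjusted p = 1.6e-05). Both tamoxifen libraries lay far above vehicle, and vehicle lay above both estradiol libraries. The same order held for the 3 related genes. Klk1b27 was at 0.0816 and 0 FPKM with estradiol, 6.47 with vehicle and 2285 and 2814 with tamoxifen, and Klk1b21 at 0.238 and 0 FPKM with estradiol, 15.1 with vehicle and 1089 and 1377 with tamoxifen. Klk1b24 was listed at 0 in both estradiol libraries and at 8.73 FPKM in vehicle, against 475 and 611 with tamoxifen. Prss29, the implantation serine proteinase secreted by uterine glands, was also listed at 0 in both estradiol libraries, with 0.512 FPKM in vehicle and 198 and 277 with tamoxifen. Its neighbour and partner Prss28 was listed at 0 in estradiol and vehicle and reached only 0.106 and 0.534 FPKM with tamoxifen, which did not pass the test (adjusted p = 0.16). In the whole list of kallikreins and secreted proteases, 20 of 37 members tested were higher and 5 lower, and 18 and 3 of these kept their call in all alternatives. Without tamoxifen 1, 3 members were lower. All 20 higher members were above vehicle in both tamoxifen libraries. Counts of 1 or 2 members in this and other lists often change when a library is left out, and are not followed further. A further 13 members did not reach 1 FPKM in any library.

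These counts are read against all genes, of which 5977 were called, or 48.5%. By direction, 1519 (12.3%) were higher with tamoxifen and 4458 (36.2%) lower, and 2453 were called with a change of at least 2-fold. A list with about 36.2% or less of its tested members lower thus has no excess of lower genes. The median log2 difference of all genes was -0.26. Scaling by median-of-ratios size factors moved that median to 0.01 and the split to 2950 higher (24.0%) and 2684 lower (21.8%), so the preponderance of lower genes depends on the scaling. With only the 4 libraries compared, 4574 genes were called, 1122 higher and 3452 lower. Without tamoxifen 2, 917 genes were higher. For this reason each pathway list below is also counted by the members called in the same direction in the main fit and all 11 alternatives, which holds for 793 genes higher (6.44%) and 2096 genes lower (17.0%). Of the 793, both tamoxifen libraries were above vehicle for 88.5%, and of the 2096, both were below vehicle for 79.4%. These genes were selected on the same tamoxifen values, which in part fixes both shares. No share over all genes tested is given beside them, and the levels are FPKM without further scaling. The counts against vehicle in each list, above and below, have the same limits. They describe where vehicle lay and are no evidence of a difference between tamoxifen and vehicle.

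**Figure D1:**
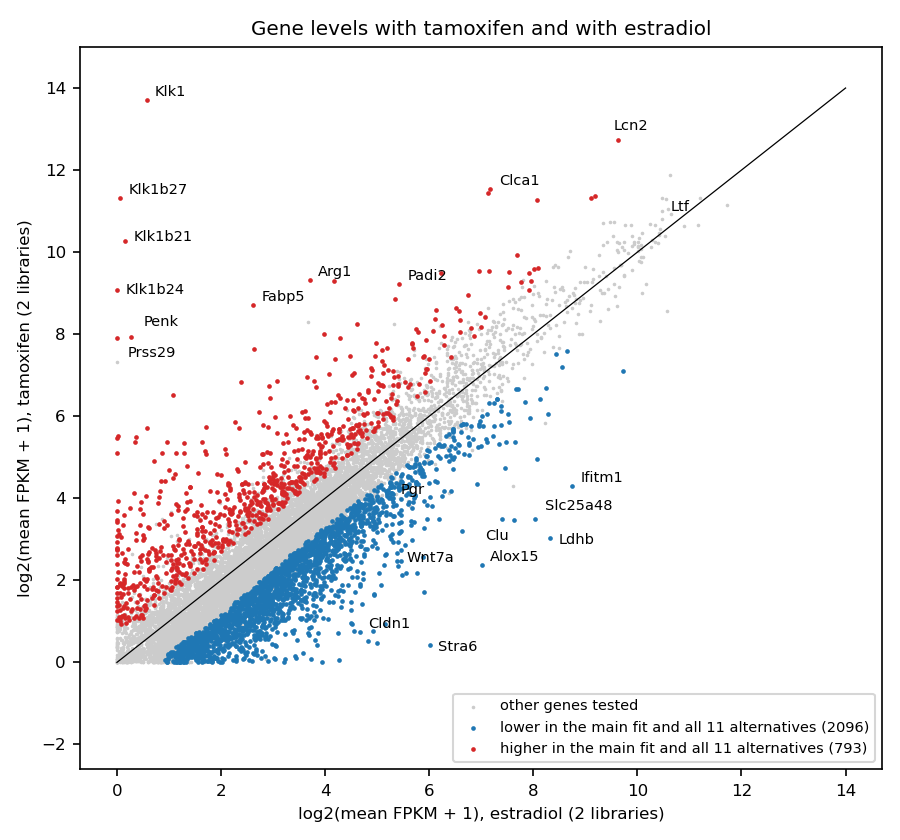
Each point is 1 of 12314 genes, with its mean level as log2(FPKM + 1) in the 2 estradiol libraries on the horizontal axis and in the 2 tamoxifen libraries on the vertical axis; the line marks equal levels, red points are the 793 genes higher and blue points the 2096 genes lower in the main fit and all 11 alternatives. The kallikreins lie alone at the upper left, near 0 with estradiol, and Stra6 and Ldhb lie among the genes farthest below the line.

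Beyond the proteases, the highest differences belonged to genes of several kinds. Penk, the precursor of enkephalin peptides, measured 0.404 and 0 FPKM with estradiol, 4.51 with vehicle and 236 and 253 with tamoxifen. Fabp5, a fatty acid carrier, measured 8.07 and 2.16 FPKM with estradiol, 3.23 with vehicle and 387 and 451 with tamoxifen, a difference of 6.29 ± 0.45. Otop1, a proton channel, was at or near 0 with estradiol (0.018 and 0 FPKM) and at 41.4 and 48.2 with tamoxifen. Il1r2, the decoy receptor that takes up interleukin 1, measured 1.67 and 0.57 FPKM with estradiol, 0.26 with vehicle and 87.8 and 94.9 with tamoxifen, a difference of 5.49 ± 0.25. Kap, first known as an androgen-regulated gene of kidney, was listed at 0 in both estradiol libraries and in vehicle and stood at 31.5 and 55.2 FPKM with tamoxifen. For Penk and Otop1 vehicle lay between the groups, and for Fabp5 it lay within the estradiol range. Hba-a2, a hemoglobin chain of red cells, was at 23.5 and 0.0086 FPKM with estradiol and 355 and 276 with tamoxifen, but its call was lost without tamoxifen 1 and with no filter on low values. The globin copies are near-identical, so single members are uncertain, and the erythroid markers as a list are given with the other cell types.

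At the other end stood Stra6, the membrane receptor that takes up retinol, with 66.2 and 60.8 FPKM with estradiol, 5.57 with vehicle and 0.319 and 0.368 with tamoxifen, a difference of -5.58 ± 0.12 (adjusted p = 1.2e-05). Ldhb, which makes the heart form of lactate dehydrogenase, measured 384 and 257 FPKM with estradiol, 110.5 with vehicle and 6.72 and 7.69 with tamoxifen, a difference of -5.27 ± 0.21. Alox15, a lipoxygenase of fatty acids, measured 132 and 123 FPKM with estradiol, 14.1 with vehicle and 3.24 and 5.07 with tamoxifen. For these 3 genes vehicle lay between the estradiol and tamoxifen libraries, so tamoxifen was also below vehicle. The same order was seen for Slc25a48, a mitochondrial carrier, with 249 and 271 FPKM under estradiol, 139.7 in vehicle and 9.4 and 11.3 under tamoxifen, and for Ap3b2, a subunit of the AP-3 adaptor, with 26.9 and 34.8, 3.65 and 0.24 and 0.538. Vwa2, a matrix protein, went from 28.1 and 26.6 FPKM with estradiol to 0.456 and 0.406 with tamoxifen, and Tnfaip2, named for its induction by tumor necrosis factor, from 35 and 34.3 to 0.968 and 0.873. Ifitm1, an interferon-induced membrane protein, fell from 548 and 311 FPKM with estradiol and 384 with vehicle to 13.1 and 24.4 with tamoxifen. Clu, the secreted chaperone clusterin, had the same pattern, with vehicle within the estradiol range (252 and 141 and 175 FPKM) and 8.1 and 12.2 with tamoxifen. Il17rb, a receptor for interleukin 17 family ligands, was highest in vehicle, at 121 FPKM, lower with estradiol at 31 and 27.8 and lowest with tamoxifen at 0.359 and 1.06.

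**Figure D2:**
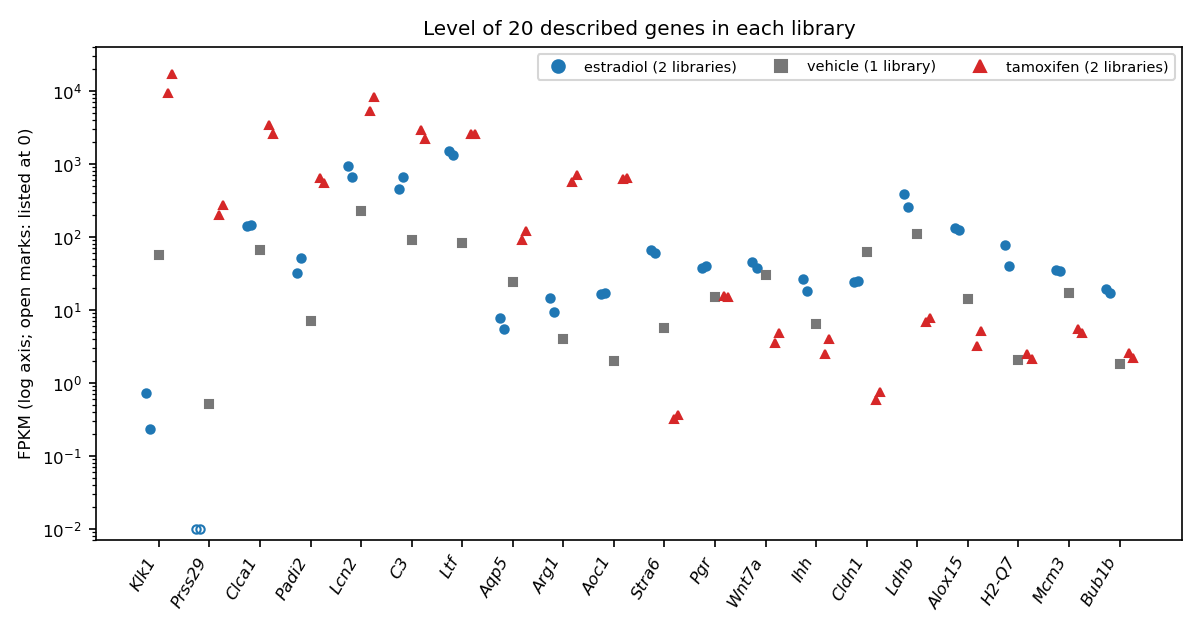
Level in FPKM on a log axis of 20 genes described in the text in each estradiol (circles), vehicle (square) and tamoxifen (triangles) library; open marks are values listed at 0. The 10 genes on the left are all higher with tamoxifen than with estradiol, and from Stra6 onward the tamoxifen marks lie below the estradiol marks.

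The list of genes known to answer to estrogen in the uterus did not move one way. Of 38 members tested, 19 were higher with tamoxifen than with estradiol and 11 lower, and 16 and 9 kept their call in all alternatives, with a median difference of 0.55 against -0.26 over all genes. The members named next were higher. C3, the central complement component and a classical estrogen-induced secretion of uterine epithelium, measured 448 and 652 FPKM with estradiol, 89.4 with vehicle and 2891 and 2191 with tamoxifen, a difference of 2.22 ± 0.30. Clca1, named for a regulator of chloride channels, measured 143 and 144 FPKM with estradiol, 66.7 with vehicle and 3364 and 2583 with tamoxifen, a difference of 4.35 ± 0.23; names in this mouse family have been reassigned over time, so which member is meant is uncertain. The peptidylarginine deiminases, which turn arginine into citrulline in proteins, were higher as a set of 3: Padi1 at 75.9 and 72.6 FPKM with estradiol and 678 and 771 with tamoxifen, Padi2 at 32.4 and 51.5 and 639.9 and 544, and Padi4 at 41.6 and 40.4 and 91.9 and 121. Vehicle was lowest for Padi2 and Padi4, at 6.96 and 4.08 FPKM, but not for Padi1, at 92.3. The water channel gene Aqp5 measured 7.83 and 5.42 FPKM with estradiol, 24.3 with vehicle and 90.9 and 122 with tamoxifen, a difference of 3.82 ± 0.22, and Aqp8 measured 0.804 and 0.21 FPKM with estradiol, 0.115 with vehicle and 4.21 and 4.85 with tamoxifen. Greb1, an estrogen receptor cofactor that is itself a receptor target, was at 11.6 and 16.1 FPKM with estradiol, 11.1 with vehicle and 30.7 and 36.5 with tamoxifen, a difference of 1.23 ± 0.19.

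Ltf, lactoferrin, the best known estrogen-induced secretion of the mouse uterus, was far above vehicle under both compounds, at 1520.1 and 1324 FPKM with estradiol, 83.1 with vehicle and 2556 and 2539 with tamoxifen. Its difference of 0.84 ± 0.25 was called, but the call was lost in 7 of 11 alternatives, among them leaving out either tamoxifen library or estradiol 2. Muc1, the cell surface mucin, also stood above vehicle under both, at 105 and 83.1 FPKM with estradiol, 12 with vehicle and 106 and 122 with tamoxifen, and the difference of 0.28 ± 0.17 between the compounds did not pass the test (adjusted p = 0.22). Among the lower members of this list were Stra6, described above, the progesterone receptor and 3 genes of the cell cycle and Wnt pathways, Ccnd1, Myc and Wnt7a, given below. For 17 of the 19 higher members both tamoxifen libraries were above vehicle, and for 10 of the 11 lower members both were below it.

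Steroid receptors and their coregulators were mostly lower with tamoxifen: 12 of 20 tested were lower and 2 higher, with 9 and 1 called in all alternatives. Pgr, the progesterone receptor, was about even between vehicle and tamoxifen and higher with estradiol, at 37.2 and 39.4 FPKM with estradiol, 15.2 with vehicle and 15.3 and 14.9 with tamoxifen, a difference of -1.29 ± 0.12. Esr1, the estrogen receptor itself, measured 31.5 and 53.5 FPKM with estradiol, 30.00 with vehicle and 22.4 and 20.6 with tamoxifen, a difference of -0.91 ± 0.25 (adjusted p = 0.024) that lost its call in 5 alternatives, among them size factors and leaving out either tamoxifen library. Gper1, a membrane receptor that binds estradiol, went from 4.26 and 3.49 FPKM with estradiol and 1.19 in vehicle to 0.0222 and 0.0243 with tamoxifen.

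Genes by which the uterine epithelium is known to answer to progesterone split, with 5 higher and 10 lower of 16 tested, and 3 and 9 in all alternatives. Without either estradiol library 3 were higher. Ihh, the hedgehog ligand that the epithelium sends to the stroma, measured 26.1 and 17.9 FPKM with estradiol, 6.39 with vehicle and 2.49 and 4 with tamoxifen, a difference of -2.44 ± 0.24. Irg1, the enzyme that makes itaconate, was high in neither tamoxifen nor vehicle, at 18.8 and 17.7 FPKM with estradiol, 0.477 with vehicle and 0.0429 and 0.0235 with tamoxifen. Areg, the growth factor amphiregulin, stood at 0.703 and 0.97 FPKM with estradiol and 2.01 and 6.18 with tamoxifen, and its call (difference 1.34 ± 0.38) was lost without either estradiol library and with no filter on low values. The highest members were Aoc1, diamine oxidase, which breaks down histamine and putrescine, at 16.7 and 17.3 FPKM with estradiol, 2.01 with vehicle and 613 and 644 with tamoxifen, and Arg1, arginase, at 14.7 and 9.38 FPKM with estradiol, 4 with vehicle and 566 and 715 with tamoxifen. These are differences of 5.13 ± 0.14 and 5.64 ± 0.24, with vehicle below both compounds.

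Both are also in the list of arginine, polyamine and proline genes. Of its 23 members tested, 5 were higher, all 5 of them in all alternatives, and 7 lower, 6 of these in all alternatives. The lower share is not above that of all genes (36.2%), and the higher share is above theirs (12.3%). Ass1, which makes the precursor of arginine, measured 19.8 and 14.8 FPKM with estradiol, 7.47 with vehicle and 75.1 and 84.8 with tamoxifen. Amd1, which makes the aminopropyl donor for spermidine, was near 0 with estradiol and vehicle (0.0191 and 0.0186 and 0.0165 FPKM) and at 6.07 and 10.6 with tamoxifen; it has a near-identical copy in the mouse, so this value may be shared with that copy. In all 5 higher members both tamoxifen libraries were also above vehicle.

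The cell cycle separated the compounds most uniformly. Of 34 mitosis genes tested, 31 were lower with tamoxifen and 0 higher by limma (1 at an unadjusted p under 0.05), and of 39 DNA replication genes all 39 were lower; 30 and 32 kept their call in all alternatives. The median differences were -1.72 and -1.71, and with size factors -1.44 and -1.41. Vehicle fell in different places for the 2 lists. In mitosis it lay below both compounds for 30 of the 31 lower genes, with a median level of 1.26 FPKM against 3.05 and 3.2 with tamoxifen and 13.4 and 12.8 with estradiol. In DNA replication both tamoxifen libraries were below vehicle for 27 of 39, and the median was 5.25 FPKM for vehicle, 2.85 and 3.77 with tamoxifen and 14.3 and 12.8 with estradiol. The order of vehicle and tamoxifen was not tested.

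Among mitosis genes, Mki67, the Ki-67 antigen of dividing cells, measured 16.6 and 30.4 FPKM with estradiol, 1.17 with vehicle and 3.65 and 2.85 with tamoxifen, a difference of -2.48 ± 0.28. Bub1b, a kinase of the spindle checkpoint, measured 19.5 and 17.3 FPKM with estradiol, 1.8 with vehicle and 2.58 and 2.17 with tamoxifen. Ccnb1, cyclin B1, was at 17.7 and 15.7 FPKM with estradiol, 0.812 with vehicle and 3.1 and 3.72 with tamoxifen. The S and G2 phase cyclin Ccna2 followed the same order (18.5 and 16.7, 1.3 and 3.72 and 3.6), as did the kinesins Kif20a (16 and 15.6, 1.33 and 3.07 and 3.58) and Kif2c (8.43 and 7.79, 0.274 and 1.21 and 1.04). For all 6 genes each tamoxifen library lay above vehicle and below both estradiol libraries.

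For the helicase subunits of replication the order was different. Mcm3 measured 35.4 and 34 FPKM with estradiol, 16.9 with vehicle and 5.54 and 4.8 with tamoxifen, a difference of -2.53 ± 0.13, and Mcm5 measured 41 and 49.4 FPKM with estradiol, 10.4 with vehicle and 6.24 and 6.26 with tamoxifen, a difference of -2.67 ± 0.15. Uhrf1, which keeps DNA methylation through replication, measured 30.5 and 33.4 FPKM with estradiol, 5.79 with vehicle and 3.58 and 3.46 with tamoxifen, and Pold1, the catalytic subunit of DNA polymerase delta, measured 23.7 and 25.2 FPKM with estradiol, 11.6 with vehicle and 2.72 and 2.74 with tamoxifen. In each of these 4 genes tamoxifen was lowest and vehicle lay between the compounds. Ccnd1, cyclin D1, which opens G1, was highest in vehicle and lowest with tamoxifen, at 21.5 and 21.9 FPKM with estradiol, 51.5 with vehicle and 9.61 and 7.75 with tamoxifen, a difference of -1.24 ± 0.15. Myc, the transcription factor of growth, did likewise, at 15.7 and 11.5 FPKM with estradiol, 45.2 with vehicle and 2.64 and 5.16 with tamoxifen, a difference of -1.61 ± 0.28.

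**Figure D3:**
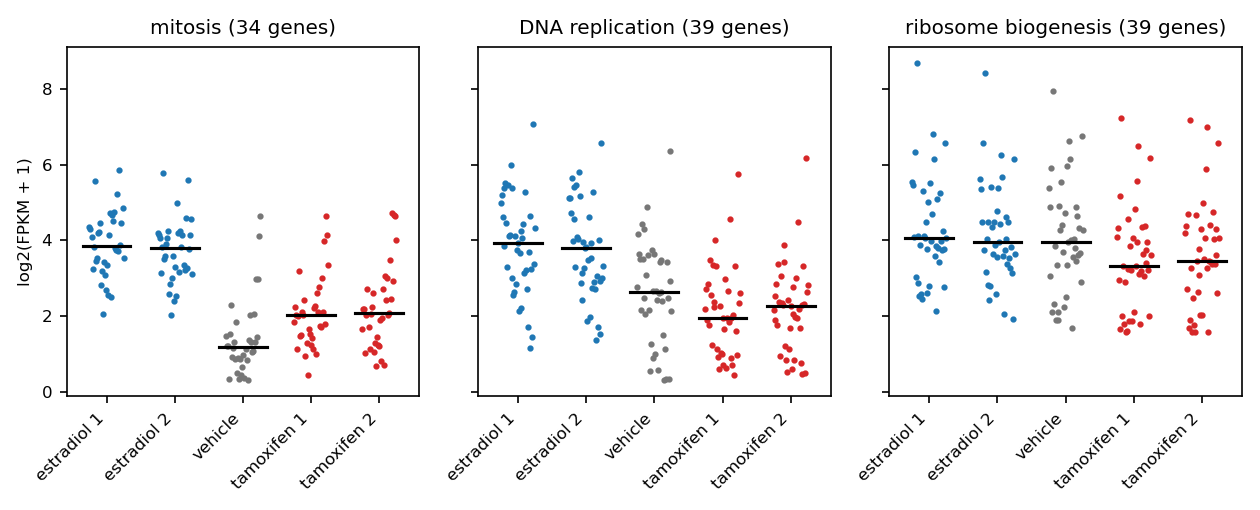
Each point is 1 gene of the mitosis, DNA replication or ribosome biogenesis list in 1 library, as log2(FPKM + 1), and each bar is the median of the list in that library. In mitosis the vehicle median lies below tamoxifen, in replication it lies between tamoxifen and estradiol, and in ribosome biogenesis it lies near estradiol.

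Genes of ribosome assembly were also lower, 25 of 39 against 1 higher. With size factors 16 were lower, and 15 were lower in all alternatives. Mybbp1a, a nucleolar regulator of ribosomal RNA synthesis, measured 45.7 and 48.4 FPKM with estradiol, 41 with vehicle and 16 and 17.1 with tamoxifen, and Rrn3, the initiation factor of RNA polymerase I, measured 16 and 21.5 FPKM with estradiol, 7.27 with vehicle and 6.78 and 5.55 with tamoxifen. Polr1c, a subunit shared by RNA polymerases I and III, went from 43.4 and 39.98 FPKM with estradiol to 19 and 19.7 with tamoxifen, and Ncl, nucleolin, from 80.1 and 93.1 to 35.2 and 24.9. The median of the list was 15.7 and 14.5 FPKM with estradiol, 14.4 with vehicle and 9.01 and 10.02 with tamoxifen. Rn45s, the product of polymerase I, varied between libraries of a group as given above, and no relation to these genes was tested.

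Of 38 genes of folding and stress in the endoplasmic reticulum, where secreted proteins are made, 20 were higher and 3 lower with tamoxifen, and 10 and 2 were so in all alternatives. Herpud1, which serves the disposal of misfolded proteins, measured 14.3 and 13 FPKM with estradiol, 31.1 with vehicle and 30.9 and 46.5 with tamoxifen, a difference of 1.41 ± 0.21. Sdf2l1, a folding cofactor of the same compartment, measured 35.3 and 27 FPKM with estradiol, 11 with vehicle and 67.3 and 66.6 with tamoxifen. The 2 members of lowest p were on the other side: Creb3l4, a membrane-bound transcription factor, at 4.07 and 2.88 FPKM with estradiol and 0.488 and 0.542 with tamoxifen, and Sesn2, a stress-induced sestrin, given with the PI3K genes.

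Defence proteins were higher in 13 of 27 members tested and lower in 6, 7 and 5 of them in all alternatives; without tamoxifen 2, 8 were higher, and without estradiol 2, 10 were lower. Lcn2, lipocalin 2, which binds bacterial siderophores, measured 927 and 652 FPKM with estradiol, 229 with vehicle and 5312 and 8249.7 with tamoxifen, a difference of 3.09 ± 0.37. Cfb, complement factor B, measured 263 and 277 FPKM with estradiol, 19.5 with vehicle and 831 and 731 with tamoxifen. Reg3g, an antibacterial lectin, was at 0.198 and 0 FPKM with estradiol and 9.4 and 12.7 with tamoxifen. All 13 higher members were above vehicle in both tamoxifen libraries. S100a8, a calprotectin subunit abundant in neutrophils, went the other way, from 2.5 and 3.58 FPKM with estradiol to 0 listed in both tamoxifen libraries and vehicle. Its partner S100a9 did not follow, at 2.07 and 0 FPKM with estradiol and 3 and 6.32 with tamoxifen, a call that 4 of 11 alternatives kept and that was lost without either tamoxifen library or estradiol 2. The summed neutrophil markers, which include both, were 9.18 and 4.56 FPKM with estradiol and 5.34 and 8.78 with tamoxifen, and the groups overlapped.

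Among chemokines and the interleukin 1 family, 14 of 40 members were higher and 8 lower, 8 and 7 of them in all alternatives. Without estradiol 2, 9 were higher. Il1a, the epithelial alarm cytokine interleukin 1 alpha, measured 17.4 and 14.4 FPKM with estradiol, 3.17 with vehicle and 117 and 141 with tamoxifen, a difference of 2.94 ± 0.17. With Il1r2, both the ligand and a decoy receptor for it were higher. Cxcl5, which attracts neutrophils, measured 20.5 and 15.4 FPKM with estradiol, 0.468 with vehicle and 0.497 and 0.786 with tamoxifen, and Cxcl14 measured 12.1 and 10.05 FPKM with estradiol, 12.3 with vehicle and 1.9 and 2.07 with tamoxifen. Lif, the cytokine needed for implantation, stood at 20.5 and 13.1 FPKM with estradiol, 35.4 with vehicle and 26 and 43.5 with tamoxifen, and its call lapsed in 5 alternatives, including leaving out tamoxifen 2 or estradiol 2.

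Of 24 antigen presentation genes tested, 15 were lower with tamoxifen and 0 higher by limma (0 higher at an unadjusted p under 0.05), 11 of them in all alternatives. H2-Ab1, a chain of the class II presenting molecule, measured 34.5 and 30.8 FPKM with estradiol, 9.44 with vehicle and 3.11 and 2.25 with tamoxifen. Cd74, the invariant chain that guides class II molecules, measured 209 and 126 FPKM with estradiol, 18.7 with vehicle and 9.32 and 11.4 with tamoxifen. H2-Q7, a class I-like gene of a family of near-identical copies, measured 76.6 and 40.2 FPKM with estradiol, 2.05 with vehicle and 2.45 and 2.14 with tamoxifen. Tap1, which carries peptides to class I molecules, measured 19 and 18.2 FPKM with estradiol, 3.18 with vehicle and 3.72 and 4.1 with tamoxifen. In H2-Ab1 and Cd74 tamoxifen was lowest, while for H2-Q7 vehicle lay below both groups. Of 45 interferon response genes 21 were lower and 2 higher, 22 were not called, and 13 were lower and 1 higher in all alternatives. The split depended on the scaling, at 14 lower and 8 higher with size factors and 17 and 5 with quantile normalization, and the median difference was -0.50 with FPKM as deposited and -0.17 with size factors. Without estradiol 1, 4 were higher. Gbp3, an interferon-induced GTPase, measured 19.7 and 20.5 FPKM with estradiol, 1.35 with vehicle and 4.91 and 5.47 with tamoxifen, Psmb8, a subunit of the immunoproteasome, 167 and 165 FPKM with estradiol, 23.2 with vehicle and 56.6 and 51.1 with tamoxifen, and Ddx58, the RNA sensor RIG-I, 12.3 and 13.7 FPKM with estradiol, 1.9 with vehicle and 4.89 and 5.17 with tamoxifen. Vehicle was below both compounds for 19 of the 21 lower genes.

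Macrophages also carry class II genes, and most markers of these cells were also lower with tamoxifen than with estradiol. Of 13 macrophage markers tested, 9 were lower with tamoxifen and 1 higher, 5 and 1 of them in all alternatives. The lower ones include Csf1r, the receptor for colony stimulating factor 1, at 4.27 and 4.19 FPKM with estradiol and 0.429 and 0.181 with tamoxifen, Adgre1, a surface receptor, at 3.32 and 2.36 and 0.151 and 0.183, and C1qc, a complement C1q chain, at 17.4 and 10.8 and 2.29 and 1.6. Itgam, the integrin CD11b, went against the list, at 10.1 and 8.8 FPKM with estradiol, 0.406 with vehicle and 51.5 and 56 with tamoxifen. The summed level of all 15 markers was 176 and 103 FPKM with estradiol, 42.7 in vehicle and 119.9 and 131 with tamoxifen. The sums of estradiol and tamoxifen thus overlapped while most single markers did not. Vehicle had the lowest sum, whereas H2-Ab1 and Cd74 were lowest with tamoxifen. Fewer cells of a type and less RNA per cell cannot be told apart in these bulk libraries, and the part of macrophages in the class II result was not tested.

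Keratins and desmosome genes of stratified epithelium were more often higher than lower, at 13 and 5 of 38 tested, and 10 and 4 in all alternatives. Krt5, a basal keratin, measured 73.4 and 77.2 FPKM with estradiol, 16.8 with vehicle and 321 and 271 with tamoxifen, a difference of 1.96 ± 0.17. Krt15 measured 35 and 31.4 FPKM with estradiol, 22.7 with vehicle and 165 and 158 with tamoxifen, and Krt6b, a keratin of activated squamous cells, 1.67 and 1.65 FPKM with estradiol, 0.297 with vehicle and 19 and 17.8 with tamoxifen. Dsc2, a desmosomal cadherin, measured 6.54 and 7.79 FPKM with estradiol, 4.32 with vehicle and 63 and 60.5 with tamoxifen, a difference of 2.95 ± 0.13. Vehicle was lowest for all 4. Krt14, the usual partner of Krt5 in basal cells, was lower with tamoxifen instead, at 61.4 and 60.9 FPKM with estradiol, 10.6 with vehicle and 32.5 and 37.5 with tamoxifen, a difference of -0.79 ± 0.14.

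Of genes of simple epithelium and its junctions, 8 of 35 were higher and 10 lower, against 12.3% and 36.2% of all genes. With size factors these were 17 and 8. The higher count was 3 without estradiol 2 or without tamoxifen 2, and 1 member, the keratin Krt7, was higher in all alternatives, at 219 and 190.1 FPKM with estradiol, 197 with vehicle and 920.5 and 1030.4 with tamoxifen, while 7 were lower in all. Cldn1, a tight junction claudin, was highest in vehicle and lowest with tamoxifen, at 24.1 and 24.6 FPKM with estradiol, 61.4 with vehicle and 0.587 and 0.75 with tamoxifen, a difference of -3.93 ± 0.13. Tjp1, the scaffold ZO-1 of the same junction, measured 17.4 and 21.7 FPKM with estradiol, 17.9 with vehicle and 7.79 and 7.33 with tamoxifen. Emx2, a homeobox gene of the uterus, measured 18.2 and 15.1 FPKM with estradiol, 5.8 with vehicle and 3.67 and 3.71 with tamoxifen. In all 3 of these, the tamoxifen libraries lay below vehicle too. Of mucins and surface proteins, 9 of 23 were higher and 3 lower, 5 and 1 of them in all alternatives; the higher count was 14 with size factors and 5 with only the 4 libraries compared. Ceacam1, an adhesion molecule, was higher, at 19.9 and 17.2 FPKM with estradiol and 81.4 and 92.3 with tamoxifen, as were Galnt3, which starts mucin-type sugar chains, at 13.2 and 9.04 and 47.5 and 49.3, and Muc13, at 0.866 and 1.23 and 4.8 and 4.49. St6gal1, which caps sugar chains with sialic acid, was lower, at 38.7 and 42.5 FPKM with estradiol, 2.76 with vehicle and 6.16 and 4.49 with tamoxifen.

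Wnt genes, which pattern the uterus and its glands, were lower in 27 of 41 tested and higher in 2, with 17 and 2 in all alternatives. Wnt7a, the ligand made by luminal epithelium, measured 45.2 and 37.3 FPKM with estradiol, 29.9 with vehicle and 3.48 and 4.77 with tamoxifen, a difference of -3.05 ± 0.17 (adjusted p = 0.00013). Fzd10, a receptor, measured 23.9 and 25.9 FPKM with estradiol, 10.8 with vehicle and 4.84 and 4.02 with tamoxifen. Lgr5, the receptor for R-spondins, was highest in vehicle and listed at or near 0 with tamoxifen, at 1.9 and 1.98 FPKM with estradiol, 5.7 with vehicle and 0 and 0.0122 with tamoxifen. Prss23, a secreted protease counted in this list, measured 21.8 and 18.3 FPKM with estradiol, 46.1 with vehicle and 4.32 and 4.93 with tamoxifen. For Wnt7a, Fzd10, Lgr5 and Prss23 tamoxifen lay below vehicle as well, as it did for 23 of the 27 lower members. Wnt4, a ligand of the same family, was not called (adjusted p = 0.91), and its groups overlapped, at 16.9 and 34 FPKM with estradiol, 4.5 with vehicle and 31.2 and 16.9 with tamoxifen.

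Matrix genes were lower in 25 of 41 tested and higher in 7, and 23 and 4 of these calls were made in all alternatives. The higher count was 11 with size factors and 4 without tamoxifen 1, tamoxifen 2 or estradiol 1. Tgfbi, an adhesive protein induced by transforming growth factor beta, measured 32.9 and 37.3 FPKM with estradiol, 519.9 with vehicle and 5.1 and 5.35 with tamoxifen, a difference of -2.53 ± 0.13. Col5a2 measured 11.8 and 11.3 FPKM with estradiol, 1.23 with vehicle and 1.38 and 1.05 with tamoxifen, and Col18a1, a basement membrane collagen, 8 and 7.72 FPKM with estradiol, 3.57 with vehicle and 0.87 and 1.23 with tamoxifen. Both tamoxifen libraries were below vehicle in 24 of the 25 lower genes. Postn, periostin, was the counterexample, at 0.29 and 0.232 FPKM with estradiol, 2.17 with vehicle and 17.8 and 15.1 with tamoxifen, a difference of 3.79 ± 0.13. Matrix proteases and inhibitors were lower in 13 of 24 and higher in 3, 9 and 2 of them in all alternatives. With size factors 10 were lower and 8 higher, and without estradiol 1, 6 were higher. Adamts1, a protease of versican, measured 13.8 and 11.7 FPKM with estradiol, 19.4 with vehicle and 1.05 and 1.63 with tamoxifen, Mmp2, gelatinase A, 8.02 and 10.2 FPKM with estradiol, 5.3 with vehicle and 1.6 and 1.45 with tamoxifen, and Timp2, which inhibits it, 11.5 and 9.73 FPKM with estradiol, 23 with vehicle and 1.93 and 1.85 with tamoxifen. Ctsc, the lysosomal cathepsin C, was higher, at 5.16 and 3.6 FPKM with estradiol, 5.53 with vehicle and 16.2 and 18.3 with tamoxifen.

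Stromal markers were lower in part, which is only partly separate from the matrix result. Dcn, Lum, Col1a1, Col1a2, Col3a1, Col6a3 and Fbln1 are in both lists. Of 17 stromal markers tested, 8 were lower with tamoxifen and 1 higher, against 36.2% and 12.3% of all genes. In all alternatives these were 6 and 1, and with size factors 6 and 3. The higher count was 2 without tamoxifen 2 or estradiol 1. Their summed level was 267 and 264 FPKM with estradiol, 321 in vehicle and 138 and 131 with tamoxifen. Vim, vimentin, was at 38.5 and 36.3 FPKM with estradiol and 6.09 and 8.11 with tamoxifen, Dcn, decorin, at 96.3 and 79.1 and 31.7 and 30.9, Col1a1 at 15 and 18.7 and 3.26 and 3.05 and Col1a2 at 17.5 and 25.3 and 5.09 and 4.51. Endothelial markers were lower in 9 of 12 and higher in 2, or lower in 5 without tamoxifen 2, with sums of 23.2 and 17.3 FPKM against 9.09 and 9.51; 12 of its 14 markers were under 1 FPKM in both tamoxifen libraries. Smooth muscle markers went the other way, 7 of 8 higher, 4 of them in all alternatives. Their sums were 11.7 and 8.3 FPKM with estradiol, 91.1 in vehicle and 30.2 and 27.2 with tamoxifen. Of its 10 markers, 8 were under 1 FPKM in both estradiol libraries and 4 in both tamoxifen libraries. The part of stroma, vessels and muscle in the matrix results was not tested.

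The labelled cell type had its markers in every library. All 12 epithelial markers were at 1 FPKM or more in at least 1 library of each group, and their sums ran from 3056 to 7248 FPKM in the 4 libraries. 5 of the 12 were higher with tamoxifen and 1 lower, or 8 and 0 with size factors and 4 and 3 with quantile normalization, and the higher count was 1 without tamoxifen 2 and 2 without estradiol 2. Luminal markers split into 4 higher and 6 lower of 12, with summed levels of 914 and 650.3 FPKM with estradiol, 897 in vehicle and 2027 and 3968 with tamoxifen. Lower ones include Wnt7a, Il17rb, Ptgs1 and Lpar3. Higher ones include Sprr2f, Krt13 and Calb1, which were named after their values were seen. Sprr2f, a small proline-rich protein of squamous envelopes, was at 351 and 186 FPKM with estradiol, 101 with vehicle and 1541 and 3397 with tamoxifen, and the keratin Krt13 at 27.4 and 24.8 and 79.7 and 79. Calb1, a calcium-binding protein, was at 96.3 and 68.4 FPKM with estradiol and 153 and 133 with tamoxifen, a call lost in 3 alternatives, among them leaving out tamoxifen 1. Sprr2f, one of a family of similar copies, made up most of the luminal sum with tamoxifen. Glandular markers split into 3 and 3 of 9: with Prss29 higher, Foxa2, the defining gland factor, was at 1.21 and 0.341 FPKM with estradiol and 1.38 and 0.998 with tamoxifen, with no call (adjusted p = 0.32), and Cxcl15 was lower, at 2.92 and 2.01 against 0 and 0.0586. Aldh1a1, a gland marker and retinal dehydrogenase, was lower, at 53.8 and 45.1 FPKM with estradiol, 115 with vehicle and 9.21 and 10.5 with tamoxifen, and Gpx3, a secreted peroxidase, higher, at 4.82 and 2.41 FPKM with estradiol, 23.5 with vehicle and 10.6 and 12.5 with tamoxifen. Red cell markers summed to 94.5 and 133 FPKM with estradiol, 40.3 in vehicle and 1539.9 and 1121 with tamoxifen; 5 of 6 tested were higher, and 3 without tamoxifen 1. Whether blood content bears on other results was not tested.

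**Figure D4:**
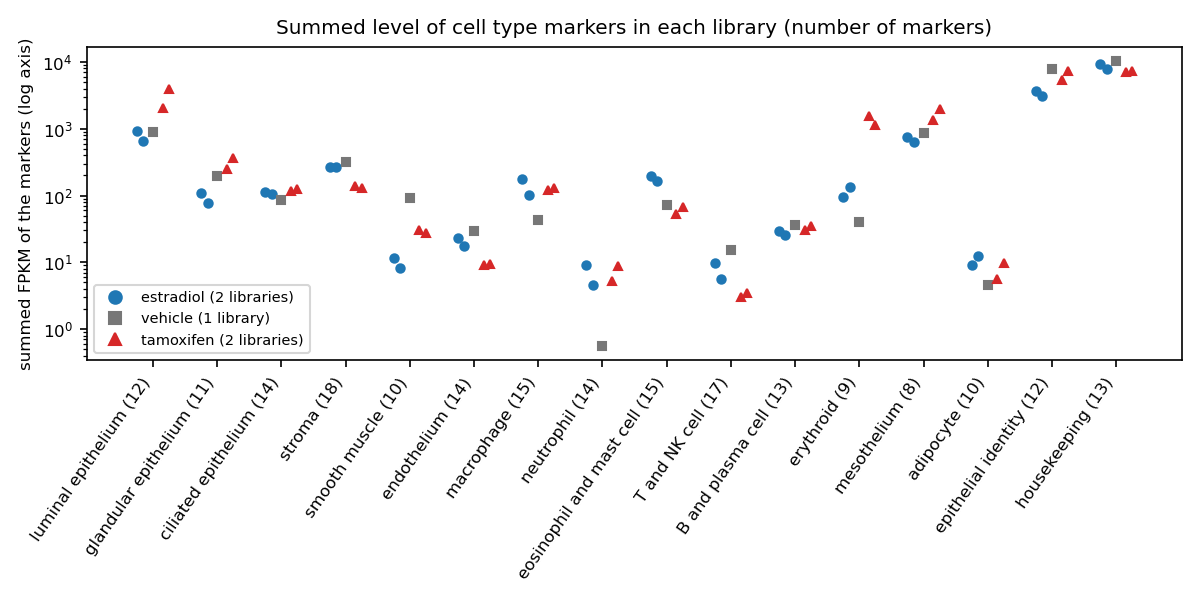
Summed FPKM on a log axis of the markers of each cell type in each estradiol (circles), vehicle (square) and tamoxifen (triangles) library, with the number of markers in parentheses. Erythroid sums are higher and stromal and endothelial sums lower with tamoxifen, while the epithelial identity markers are the largest cell type sum in every library.

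Fluid transport genes went both ways, with 9 higher and 13 lower of 27 tested, and 6 and 10 in all alternatives. Among all genes 12.3% were higher and 36.2% lower. Besides Aqp5, Aqp8, Clca1 and Otop1, Car12, a membrane carbonic anhydrase, was higher, at 15.9 and 13.6 FPKM with estradiol, 3 with vehicle and 261 and 251 with tamoxifen, a difference of 4.03 ± 0.14. Aqp11, an aquaporin of inner membranes, was lower, at 5.65 and 5.14 FPKM with estradiol, 4.07 with vehicle and 0.232 and 0.207 with tamoxifen. Cftr, the chloride channel through which estrogen is known to drive uterine fluid, stood above vehicle under both compounds, at 9.99 and 11.4 FPKM with estradiol, 2.06 with vehicle and 13 and 12.7 with tamoxifen, and did not pass the test between them (adjusted p = 0.15).

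Retinoid, steroid and xenobiotic enzymes moved in both directions, with 17 higher and 16 lower of 48, and 14 and 13 in all alternatives. The lower share is near that of all genes (36.2%), while the higher share is above theirs (12.3%). In all alternatives 6.44% of all genes were higher and 17.0% lower, and both shares of this list are above these. Hsd17b2, the enzyme that turns estradiol into the weaker estrone, measured 0.456 and 0.807 FPKM with estradiol, 0.691 with vehicle and 22.8 and 35.3 with tamoxifen, a difference of 4.18 ± 0.23. Cyp21a1, the steroid 21-hydroxylase, measured 11.7 and 11.3 FPKM with estradiol, 0.0839 with vehicle and 117 and 128 with tamoxifen. Both were higher with tamoxifen, and for Hsd17b2 vehicle lay within the estradiol range. Crabp1, which binds retinoic acid in the cell, was listed at 0 in both estradiol libraries and at 5.18 and 6.18 FPKM with tamoxifen, while Stra6, which brings retinol in, was lower as given above.

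Lipid mediator genes were lower in 16 of 26 and higher in 2, and 10 and 0 in all alternatives. Ptgs1, the constitutive cyclooxygenase, measured 16.7 and 15.9 FPKM with estradiol, 24.8 with vehicle and 2.22 and 2.53 with tamoxifen. Lpar3, the lysophosphatidic acid receptor of luminal epithelium at implantation, measured 10.7 and 10.6 FPKM with estradiol, 4.25 with vehicle and 0.826 and 1.42 with tamoxifen, and Abcc4, which exports prostaglandins, 7.28 and 6.72 FPKM with estradiol, 11.6 with vehicle and 1.24 and 1.43 with tamoxifen. For Ptgs1, Lpar3 and Abcc4 tamoxifen lay below both estradiol and vehicle. Ptgs2, the inducible cyclooxygenase, did not pass the test, at 11.2 and 11.1 FPKM with estradiol, 22.6 with vehicle and 8.45 and 12 with tamoxifen (adjusted p = 0.58).

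In glucose metabolism 6 of 38 genes were higher and 13 lower, 4 and 7 of them in all alternatives, and the lower share is near that of all genes (36.2%). With size factors the balance was the other way, at 11 higher and 8 lower, and without either tamoxifen library 8 were lower. Hk1, the first enzyme of glycolysis, measured 21.9 and 21.1 FPKM with estradiol, 33.3 with vehicle and 1.92 and 1.59 with tamoxifen, a difference of -3.03 ± 0.13. Pfkfb3, which sets the flux through phosphofructokinase, measured 22.2 and 20.7 FPKM with estradiol, 9.26 with vehicle and 0.734 and 1.17 with tamoxifen, a difference of -3.53 ± 0.15. With Ldhb these 3 were lower, while Slc16a1, a lactate transporter, was higher, at 3.62 and 3.3 FPKM with estradiol, 3.58 with vehicle and 12.3 and 12.5 with tamoxifen. Sterol and fatty acid synthesis split into 12 higher and 15 lower of 39, 5 and 9 of them in all alternatives. The lower share is near that of all genes (36.2%), and the higher share is above theirs (12.3%). The counts were 17 and 9 with size factors and 16 and 10 with quantile normalization, and 7 were higher without either tamoxifen library. Thrsp, a nuclear protein of lipogenesis, measured 60.4 and 46.7 FPKM with estradiol, 16.9 with vehicle and 2.97 and 4.07 with tamoxifen, a difference of -3.59 ± 0.19. The desaturases Fads2 and Scd2 were lower, Fads2 at 5.52 and 5.32 FPKM with estradiol and 0.873 and 1.28 with tamoxifen, and Scd2 at 157 and 143 and 53.8 and 52.2. Insig1, which restrains sterol synthesis, was higher, at 12.4 and 11.7 FPKM with estradiol, 14.5 with vehicle and 28.6 and 33.7 with tamoxifen. Sqle, an enzyme of sterol synthesis, at 9.76 and 9.7 FPKM with estradiol and 12 and 12.5 with tamoxifen, was not called (adjusted p = 0.076).

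The PI3K pathway passes signals of insulin, IGF and EGF family receptors to AKT and mTOR, mostly by phosphorylation, and RNA levels do not measure that. Of 39 components of PI3K, AKT and mTOR tested, 2 were higher and 15 lower, and the lower count is near the share of all genes (36.2%). The split depended on the analysis, at 4 higher and 4 lower with size factors and 5 and 6 with quantile normalization. The lower count was 6 without tamoxifen 2, and 1 higher and 3 lower members kept their call in all alternatives. These were Ddit4, an inhibitor of mTOR, at 57.7 and 43.4 FPKM with estradiol, 17.7 with vehicle and 165 and 240.3 with tamoxifen, and on the lower side the sestrins Sesn3, at 13.1 and 17.1 FPKM with estradiol, 8.02 with vehicle and 4.17 and 3.34 with tamoxifen, and Sesn2, at 4.57 and 5.79 FPKM with estradiol, 4.89 with vehicle and 1.71 and 1.98 with tamoxifen, and the kinase Sgk1, at 30.8 and 32.5 FPKM with estradiol, 36 with vehicle and 6.77 and 12.6 with tamoxifen. Pik3ca, a catalytic subunit of PI3K, measured 3.3 and 4.34 FPKM with estradiol, 2.84 with vehicle and 2.74 and 2.31 with tamoxifen, a difference of -0.44 ± 0.15 that did not pass the test (adjusted p = 0.054).

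Upstream, genes of the insulin and IGF axis were lower in 10 of 18 and higher in 2, with 6 and 2 in all alternatives and 7 and 3 with size factors. Igf1r, the IGF receptor, was lowest with tamoxifen, at 3.89 and 5.53 FPKM with estradiol, 6.41 with vehicle and 1.34 and 1.17 with tamoxifen, a difference of -1.33 ± 0.18. Irs1, its docking protein, measured 8.31 and 10.4 FPKM with estradiol, 3.11 with vehicle and 2.71 and 2.29 with tamoxifen, and Grb10, an adaptor that restrains the receptor, 13.8 and 15.4 FPKM with estradiol, 9.11 with vehicle and 3.74 and 3.4 with tamoxifen. Irs2 was under 1 FPKM in all 4 libraries (0.515 and 0.684 and 0.227 and 0.16), and 3 alternatives kept its call, which was lost without either tamoxifen library or estradiol 2. Of ligands and binding proteins, Igf1, which in the uterus comes mainly from stroma, overlapped between the groups, at 0.995 and 1.21 FPKM with estradiol, 1.08 with vehicle and 1.28 and 0.998 with tamoxifen, a difference of 0.02 ± 0.14 (adjusted p = 0.9). Igfbp2 overlapped between groups, at 1.38 and 0.434 FPKM with estradiol and 0.324 and 1.26 with tamoxifen. Igfbp3 was highest in vehicle of these 5 libraries, at 0.979 and 1.08 FPKM with estradiol, 31.9 with vehicle and 0.114 and 0.226 with tamoxifen, and Stc1, stanniocalcin, measured 3.01 and 3.08 FPKM with estradiol, 5.19 with vehicle and 0.0575 and 0.0939 with tamoxifen.

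Downstream, FOXO factors and their targets were higher in 8 and lower in 9 of 30, 5 and 4 of them in all alternatives. The lower share is not above that of all genes (36.2%), and the higher share is above theirs (12.3%). With size factors 9 were higher and 4 lower. Without estradiol 2 these were 5 and 5, and without tamoxifen 1, 5 were lower. Foxo1, the factor that AKT keeps out of the nucleus, measured 9.7 and 11.2 FPKM with estradiol, 13 with vehicle and 6.03 and 5.74 with tamoxifen, a difference of -0.73 ± 0.13 whose call was lost with size factors. Txnip, a regulator of glucose uptake, was higher, at 40.5 and 37.7 FPKM with estradiol, 43.6 with vehicle and 105 and 139.5 with tamoxifen. EGF family genes gave 3 higher and 4 lower of 15, against 12.3% and 36.2% of all genes, and none in all alternatives. With size factors 5 were higher and 0 lower, and with quantile normalization 4 and 0. Without estradiol 2 no member was higher, without estradiol 1 there was 1, and without tamoxifen 2, 2 were lower. Hbegf, a ligand, was at 45.1 and 38.3 FPKM with estradiol and 79.4 and 139 with tamoxifen, and its call was lost without estradiol 2; Tgfa, another ligand, at 5.08 and 5.36 and 3.04 and 2.53, lost its call under both other scalings. Immediate early genes, which growth factors and tissue handling both induce, were higher in 7 and lower in 5 of 33. The shares of all genes were 12.3% and 36.2%. Of the called members, 1 and 4 kept their call in all alternatives, and with size factors the counts were 18 and 4. The higher count was 17 without tamoxifen 1, 4 without tamoxifen 2 and 1 without estradiol 2. Fos overlapped between groups, at 340.1 and 272 FPKM with estradiol, 592 with vehicle and 305 and 626 with tamoxifen. The members lower in all alternatives were Myc and 3 genes that were also highest in vehicle: Klf5, an epithelial transcription factor, at 46.1 and 49.3 FPKM with estradiol, 70.7 with vehicle and 18.6 and 19.95 with tamoxifen, Thbs1, thrombospondin, at 11.5 and 11.2 FPKM with estradiol, 59.6 with vehicle and 3.58 and 4.55 with tamoxifen, and Fosl2, an AP-1 subunit, at 45.2 and 38 FPKM with estradiol, 108 with vehicle and 16.6 and 19.7 with tamoxifen.

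**Figure D5:**
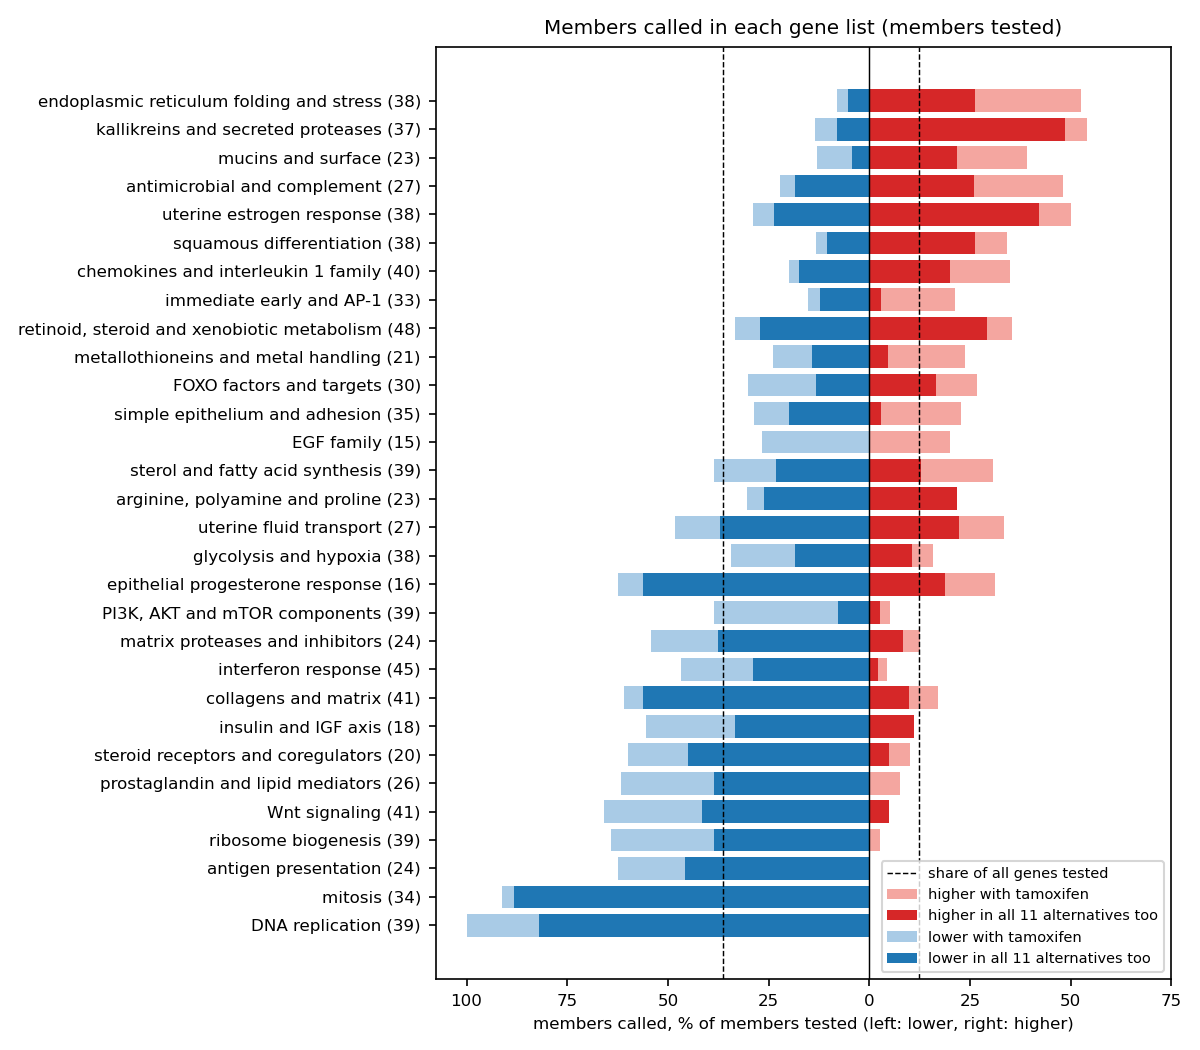
Percentage of tested members of each pathway list called higher (right) or lower (left) with tamoxifen than with estradiol; dark bars are members called in all 11 alternatives too, dashed lines mark 12.3% and 36.2%, the shares of all genes, and the number of members tested is in parentheses. Mitosis and DNA replication have the longest bars on the left, and among these pathway lists kallikreins and secreted proteases have the longest dark bar on the right.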

How the data were processed

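RNA-seq of endometrial epithelial cells gave 1 deposited table of 24353 gene names, of which 6155 are at 0 in all 7 libraries. Per the submitters' processing notes the authors used CASAVA, Bowtie and Cufflinks (no versions stated). The values are FPKM as deposited by the authors: although the table is called one of counts, they are not whole numbers. The notes name a human genome build while the symbols are mouse symbols, so no position comes from the table. Of the names, 23697 matched a mouse symbol and 552 an older one; 27 names that a spreadsheet had made into dates entered the fit but are not named.

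The 12314 genes that reached 1 FPKM in any library were tested with limma-trend (limma 3.58.1, R 4.3.3) on log2(FPKM + 1), which understates changes of low genes. The fit had 4 group means over all 7 libraries, 3 residual degrees of freedom and 3.27 from the prior, no scaling beyond FPKM, and Benjamini-Hochberg adjustment over all genes at 0.05. A library standing alone in its group is assumed to vary like the others. The method was tested on simulated data. No fold is given against a group listed at 0. Genes were named by rule: the 12 highest and 12 lowest differences among called genes of mean FPKM at least 5 with groups that do not overlap, up to 4 members of lowest p per list, and fixed genes; some genes the rule names are not reported here. The comparison, lists and rules were chosen with earlier results of these data known, so the lists are no independent evidence. Promoter windows are from RefSeq. The count of calls that held in all 11 alternatives was added after seeing the data. Python 3.11.15, numpy 2.4.6, pandas 2.3.3 and matplotlib 3.10.9 were used.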

Additional observations from a re-analysis of the deposited data

How the results depend on the processing

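The 11 alternatives were 2 other scalings, no filter on low values, a minimum of 1 FPKM in 2 libraries, a pseudocount of 0.1, only the 4 libraries compared, a replicate block, and leaving out each of the 4 libraries. The number of genes called stayed within 1.5 times of the main count in all of them, and so did the number called with at least 2-fold change. The split by direction did not: 2950 genes were higher and 2684 lower with median-of-ratios size factors, and 2523 and 2756 with quantile normalization, which is by construction of these scalings, since they moved the median log2 difference of all genes from -0.26 to 0.01 and -0.03. With no filter on low values the median was -0.08, over more genes tested. Leaving out 1 library at a time gave 4326 to 6090 genes called, 917 to 1905 higher, 3235 to 4185 lower and 2232 to 2915 called with at least 2-fold change, and medians of -0.32 to -0.21; the cause of the lowest count of higher genes, without tamoxifen 2, was not tested. The mouse numbers are those of separate mice and share only a number: same-numbered deviations from the group means had r = -0.40, and a replicate block called 5089 genes. Of 157 named genes that were called, 144 kept their call in all 11. Among named genes, no called one changed direction, and differences that were not called changed sign as follows. With size factors Igfbp2 stood at 0.05, Ptgs2 at 0.20 and Wnt4 at 0.29; with quantile normalization Igfbp2 at 0.20, Ptgs2 at 0.09 and Muc1 at -0.02. With 1 library left out, Foxa2 ranged from -0.02 to 0.70, Igf1 from -0.07 to 0.12, Igfbp2 from -0.48 to 0.29, Ptgs2 from -0.36 to 0.10 and Wnt4 from -0.54 to 0.43. Depth is estimated for 6 libraries and unknown for estradiol 2, so how far values below 1 FPKM are limited by depth in that library is unknown.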

Other observations

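Metal handling genes gave 5 higher and 5 lower of 21 tested, against 12.3% and 36.2% of all genes. In all alternatives 1 and 3 kept their call, and with quantile normalization the counts were 6 and 3. The higher count was 3 without tamoxifen 1 and 1 without tamoxifen 2 or estradiol 2, and the lower count 3 without tamoxifen 1. A pair of related zinc carriers moved in opposite directions: Slc39a8 measured 10.2 and 11.8 FPKM with estradiol, 5.08 with vehicle and 43.7 and 41.5 with tamoxifen, and Slc39a14 measured 11.6 and 11.3 FPKM with estradiol, 8.77 with vehicle and 0.956 and 1.14 with tamoxifen. Slc39a8 was thus higher and Slc39a14 lower with tamoxifen, and neither pair of groups overlapped. Steap1 measured 31.5 and 29.3 FPKM with estradiol, 0.985 with vehicle and 11.3 and 12 with tamoxifen. Mt3, a metallothionein, was highest in vehicle, at 4.84 and 3.55 FPKM with estradiol, 92.6 with vehicle and 0 and 0.412 with tamoxifen.

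Among markers of mast cells and related leukocytes, Tpsab1, a tryptase, was listed at 0 in both estradiol libraries, at 0.0567 FPKM in vehicle and at 23.8 and 43.4 with tamoxifen, while Hdc, the enzyme that makes histamine, measured 193 and 156 FPKM with estradiol, 66.6 with vehicle and 27.6 and 23.5 with tamoxifen, and Kit, the stem cell factor receptor, 6.18 and 8.32 FPKM with estradiol, 0.544 with vehicle and 0.92 and 1.08 with tamoxifen. Of the 15 markers of this list, 13 were under 1 FPKM in both estradiol libraries and 12 in both tamoxifen libraries. Of 4 tested, 2 were higher and 2 lower, 1 and 2 of them in all alternatives. Hdc, which is also in the list of progesterone response genes, made up most of the summed level with estradiol (199 and 164 FPKM). Aoc1, which breaks histamine down, was higher with tamoxifen as given above, so RNA of the histamine-making enzyme was lower and of a histamine-degrading enzyme higher in the same libraries. Of mesothelial markers, 5 of 8 were lower and 1 higher. Lower ones include Upk3b, a uroplakin, at 17.8 and 18 FPKM with estradiol, 14.1 with vehicle and 6.73 and 7.4 with tamoxifen, and Msln, mesothelin, at 10.3 and 7.42 FPKM with estradiol, 3.93 with vehicle and 2.07 and 3.54 with tamoxifen. The higher one was the keratin Krt19, which epithelium also makes, at 705 and 595 FPKM with estradiol, 820.0 with vehicle and 1356 and 1974 with tamoxifen, and its call was lost without tamoxifen 2. It carried most of the list's sum, which was 748 and 633 FPKM with estradiol and 1368 and 1989.9 with tamoxifen.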
